A study of Homo sapiens with 12 samples.

Results

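Silent genes that start just past the 3' end of an expressed gene were described in HCT116, a cell line from a human colon carcinoma. A gene was taken as silent when its estimated counts summed to 3 or less over the 3 control libraries. It had to overlap no gene with a control mean of 5 CPM or more, and to start within 20 kb past the 3' end, on the same strand, of such a gene. CPM here is taken over a library's column total. The rule found 1358 genes, called members below, behind 1159 upstream genes. There were 58228 genes with coordinates in all, 11439 genes at 5 CPM or more and 26116 silent genes that overlap no expressed gene. Members were thus selected on their control counts and those of their neighbours, and the named upstream genes were chosen by counts after POLR2A depletion, so levels against control are a description and carry no test.

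The study measured total RNA by sequencing after ribosomal RNA depletion, in 12 libraries of 4 groups with 3 libraries each. Control cells were wild type and received DMSO for 8 h. The POLR1A group is a line in which POLR1A, the largest subunit of RNA polymerase I, carries the degron AID1. Those cells had doxycycline at 1 µg/ml for 24 h before 500 µM IAA, an auxin, was given for 8 h. The POLR2A group is a line in which POLR2A, the largest subunit of RNA polymerase II, carries the degron AID2, and it received 1 µM 5-Ph-IAA for 8 h. Wild-type cells were also treated with actinomycin D, which binds DNA and blocks transcription, at 5 µg/mL for 6 h. Neither degron line has untreated libraries of its own here, and the POLR1A line alone had doxycycline, so line, inducer and depletion cannot be told apart. The titles give the times above, while the extraction text gives harvest at 6 hours. Replicates are separate dishes of a single day, so p-values measure the spread between dishes.

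When RNA polymerase II reaches the end of a gene, the transcript is cut just past a poly(A) signal, most often AATAAA, and a tail is added. The polymerase stays on the template for a stretch beyond the cut and is released after the exonuclease XRN2 degrades the RNA still attached to it. Where cleavage or release is delayed, transcription can run on into the next gene on the same strand, which is called readthrough. Stress, viral infection and loss of cleavage factors are known settings for it.

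The ends of the upstream genes are shown first, because the members start behind them. Each line gives the last 30 transcribed bases of an upstream gene, from GENCODE 29 on GRCh38, with the hexamer AATAAA in capitals. The windows are chr16:22087505-22087534 on the plus strand, chr12:57055643-57055672 on the minus strand, chr1:71063291-71063320 on the minus strand, chr14:61796399-61796428 on the plus strand and chr1:156140060-156140089 on the plus strand.
MOSMO: attttcttaAATAAAaaatatgaaaactca
NEMP1: attccaattttAATAAAagttttatagata
ZRANB2: agaAATAAActagagatttttaaactctga
SNAPC1: tgacgcaAATAAAattttcatttattagca
LMNA: atcaatacactagttgtttctacccctggc
LMNA carries neither AATAAA nor ATTAAA in its last 50 bases, and the same holds for PPIL4 and AL161431.1 among the 15 upstream genes named below. In the last 50 bases of the annotated transcript, on the transcribed strand, AATAAA stood in 699 of 1077 protein-coding upstream genes, or 64.9%. It stood in 34 of 50, or 68.0%, of those whose member had 100 or more counts after POLR2A depletion. Among the 9529 other protein-coding genes at 5 CPM or more the share was 60.4%. Neither hexamer was found in 22.1%, 24.0% and 25.1% of these sets. A hexamer here is a match of letters and not a mapped cleavage site.

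The members' own start regions differ among themselves. Each line gives the 250 bases before a RefSeq start site on GRCh38.p14, with every CG in capitals. They lie at chr12:57051199-57051448 on the minus strand, chr6:49499673-49499922 on the plus strand and chrX:20116908-20117157 on the minus strand.
MYO1A: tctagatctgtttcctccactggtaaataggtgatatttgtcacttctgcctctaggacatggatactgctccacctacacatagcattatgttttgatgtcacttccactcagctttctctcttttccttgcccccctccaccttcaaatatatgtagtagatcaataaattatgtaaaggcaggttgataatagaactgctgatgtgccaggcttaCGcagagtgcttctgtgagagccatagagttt
GLYATL3: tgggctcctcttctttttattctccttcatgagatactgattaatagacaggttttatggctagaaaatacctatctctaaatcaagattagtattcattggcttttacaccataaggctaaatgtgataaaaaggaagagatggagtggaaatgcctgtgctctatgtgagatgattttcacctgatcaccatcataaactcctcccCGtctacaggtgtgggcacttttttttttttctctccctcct
MAP7D2: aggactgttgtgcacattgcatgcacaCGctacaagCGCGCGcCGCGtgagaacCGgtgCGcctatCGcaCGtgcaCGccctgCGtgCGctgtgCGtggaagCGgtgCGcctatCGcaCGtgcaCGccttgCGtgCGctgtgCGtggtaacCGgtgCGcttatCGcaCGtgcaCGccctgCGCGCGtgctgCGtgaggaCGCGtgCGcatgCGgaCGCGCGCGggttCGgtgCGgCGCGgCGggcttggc
MYO1A and GLYATL3 each hold 1 CG in these 250 bases and MAP7D2 holds 44, so the leading members include both kinds of start region. RefSeq promoters of 300 bases, 250 before and 50 after the start, were matched to 289 members. In 209 of these the RefSeq start lay within 100 bases of the member's annotated start, and in the others farther off. The median of the matched promoters was 8 CG, against 14 over all 35116 promoters in the table. It was 25 for upstream genes and 26 for all genes at 5 CPM or more. TATAAA, searched on both strands, was in 12.5% of the matched members' promoters and in 11.5% of all promoters.

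Library totals ran from 11289272 to 27394059 estimated counts, lowest in a POLR2A-depleted library. Genes with a count numbered 37554 to 39353 in the POLR2A-depleted libraries, 30938 to 31900 in controls, 32501 to 33336 with POLR1A depleted and 30249 to 31958 with actinomycin D. All 7 epithelial markers were present in every library, with summed levels of 3721 to 3948 CPM in controls and 2072 to 2189, 2785 to 2801 and 3066 to 3301 CPM in the POLR1A, POLR2A and actinomycin D groups. The 12 markers of blood, connective, endothelial, neural and liver cells summed to between 25.1 and 29.03 CPM in controls. Their sums lay between 42.6 and 45.1 CPM in the POLR1A group, between 45.0 and 51.5 in the POLR2A group and between 34.2 and 37.2 in the actinomycin D group. Of the 12, 4 were higher in every POLR2A-depleted library than in any other library: PTPRC, COL3A1, PECAM1 and ALB, the largest being PECAM1 at 7.98 to 9.57 CPM. The other endothelial marker, VWF, stood at 0.278 to 0.665 CPM there and at 0.285 to 0.570 in controls, and the neural marker MAP2 at 8.18 to 10.4 CPM against 11.1 to 12.03. The T cell marker CD3E was at 0 in every library outside the POLR2A group and at 0 to 0.0886 CPM within it. In the POLR1A group 2 of the 12 were above every other library, CD68 and COL1A1. CD68 stood at 5.83 to 8.41 CPM there, 0.751 to 2.65 with POLR2A depleted and 2.08 to 3.83 in controls. COL1A1 stood at 21.7 to 23.4, 12.2 to 18.7 and 6.67 to 7.77 CPM in the same order. With actinomycin D 1 was, MAP2. In bulk RNA, fewer cells of a type and less RNA per cell cannot be told apart. Mitochondrial genes held 8.74% to 10.5% of counts in the POLR2A-depleted libraries, 3.51% to 3.65% after actinomycin D, 5.62% to 6.03% in the POLR1A group and 6.14% to 8.27% in controls. The part of these shifts in the results below was not tested.

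The members are a mixed set of genes. They comprised 320 protein-coding genes, 354 long non-coding RNAs, 396 pseudogenes, 252 small RNAs and 36 others. Their median distance past the upstream 3' end was 9654 bases and their median summed exon length was 590 bases. Most upstream genes, 993 of 1159, had a single member and none had more than 5. Another annotated gene overlapped 521 members. No library held a count for 243 members, and the controls held none for 820.

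Counts on the members were high in the POLR2A-depleted libraries. Summed over all 1358 members they took 528.7, 662 and 564 CPM in the 3 POLR2A-depleted libraries. The control libraries reached 17.5 to 23.5 CPM. Depletion of POLR1A gave 52.5 to 56.0 CPM and actinomycin D gave 27.5 to 33.4 CPM. Every POLR2A-depleted library was above every other library by more than the spread within any group. The highest POLR2A-depleted sum was still only 0.0662% of that library. In 520 members, or 38.3%, every POLR2A-depleted library was above every control, against 22.9% of all genes and 13.7% of silent genes farther than 20 kb from an expressed gene. The same held for 66 members with POLR1A depleted and for 35 with actinomycin D, against 11.5% and 9.53% of all genes and 1.42% and 1.15% of the far silent genes. Summed over the libraries of a group, 962 members had more counts after POLR2A depletion than in controls, 75 had fewer and 321 had the same number.

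The counts were spread over many members and reached high values in few. After POLR2A depletion 551 members had a count in all 3 libraries, against 160 with POLR1A depleted and 108 with actinomycin D. At least 10 counts over 3 libraries were reached by 452, 79 and 37 members in these groups, and 100 or more by 51, 1 and 0. Of the 51, 42 were protein-coding. The 10 members that gained most held 16.4% of the total gain and 72 members held 50% of it. Protein-coding members held 58.6% of the POLR2A-depleted counts, long non-coding RNAs 21.3%, pseudogenes 16.2% and small RNAs 1.68%.

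Members were compared between the 3 treated groups, whose values the choice of members did not use. In 469 members, or 34.5%, every POLR2A-depleted library was above every POLR1A-depleted library by CPM, against 22.8% of all genes and 12.8% of silent genes farther than 20 kb from an expressed gene. Over actinomycin D the number was 503, or 37.0%, against 27.6% and 13.4%. The opposite order was seen in 14 members for POLR1A depletion over POLR2A depletion, or 1.03%, against 11.6% of all genes and 0.332% of the far silent genes. For actinomycin D over POLR2A depletion it was 5 members, or 0.368%, against 9.44% and 0.281%. Between the other pair, 69 members, or 5.08%, were higher in every POLR1A-depleted library than in every actinomycin D library, against 18.6% and 1.44%, and 19, or 1.399%, were lower in each, against 9.38% and 0.784%. These comparisons share libraries with one another.

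The same pairs of groups were tested by a quasi-likelihood fit in edgeR over all genes with a count, with calls at a Benjamini-Hochberg adjusted p under 0.05. Of the 1358 members, 1109 entered. Between POLR2A and POLR1A depletion 355 members were called higher and 5 lower, against a background of 20.7% of all genes called higher and 15.7% lower. Between POLR2A depletion and actinomycin D 400 were called higher and 5 lower, against 25% and 17.9%. Of the members tested the called shares were 32.0% and 36.1%, of the silent genes past a 3' end on the opposite strand 29.3% and 34.3%, and of the far silent genes 19.6% and 21.2%. Among protein-coding members tested they were 54.2% and 57.2%, among those on the opposite strand 44% and 52.8%, and among protein-coding far silent genes 35.3% and 37.5%. Each opposite-strand share lay between that of the members and that of the far genes. Among protein-coding genes against POLR1A depletion it was nearer to the far genes, and otherwise nearer to the members. No test of these differences was made. With the usual filter on low counts only 162 members remained. These had passed mainly through the POLR2A-depleted libraries, so the 156 called higher and 1 lower than with POLR1A depleted (background 33.2% and 29.1%) and the 160 higher and 0 lower than with actinomycin D (background 39.8% and 31.1%) describe those members and no others. The 0 stands beside 0 at an unadjusted p under 0.05, 5 lower calls in edgeR without a filter and 2 in DESeq2.

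**Figure D1:**
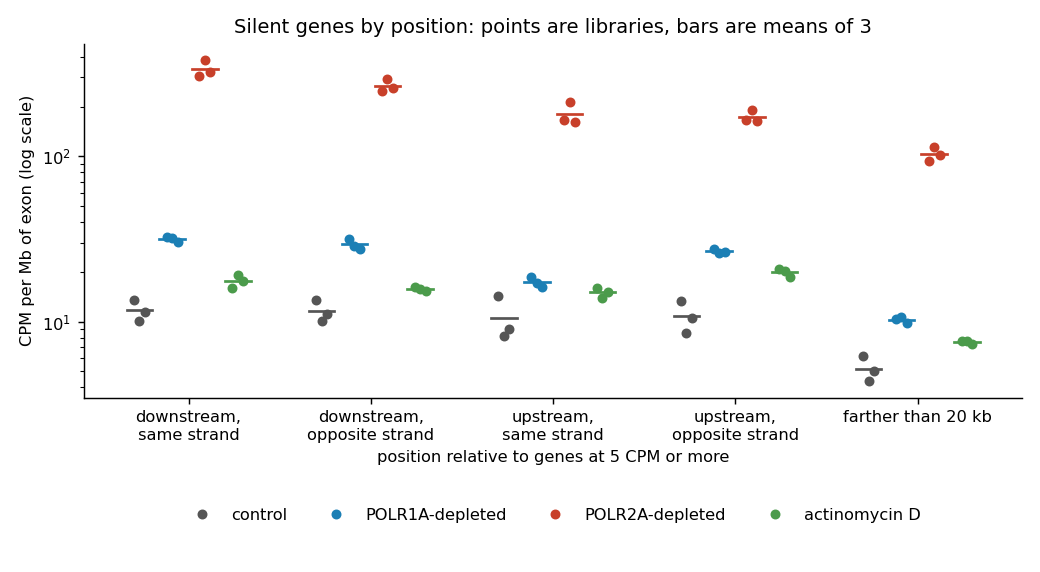
Levels of silent genes by their position relative to genes at 5 CPM or more, as CPM per Mb of summed exon length on a log axis; each point is a library and each bar the mean of 3. The POLR2A-depleted libraries are the highest at every position, with the members at 305 to 383 and silent genes farther than 20 kb at 94.1 to 115.

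Silent genes at other positions moved in the same direction. Per Mb of summed exon length the members stood at 338 ± 40.0 CPM with POLR2A depleted (SD, n = 3), 31.6 ± 1.12 with POLR1A depleted, 17.6 ± 1.70 with actinomycin D and 11.7 ± 1.72 in controls. The 1086 silent genes within 20 kb past a 3' end but on the opposite strand stood at 267 ± 24.7 with POLR2A depleted and 11.6 ± 1.82 in controls. The 1012 silent genes on the same strand but upstream of an expressed gene stood at 180 ± 27.8 and 10.5 ± 3.30, and the 964 upstream on the opposite strand at 174 ± 15.5 and 10.8 ± 2.39. The 21696 silent genes farther than 20 kb stood at 104 ± 10.3 and 5.19 ± 0.945. The ratio of the POLR2A-depleted to the control level was 28.8 for members, 23.0 past the 3' end on the opposite strand, 20.0 for the far genes, 17.2 upstream on the same strand and 16.2 upstream on the opposite strand. Over the POLR1A-depleted level, which the rule did not use, the ratio was 10.7 for members, 9.09 past the 3' end on the opposite strand, 10.1 for the far genes, 10.4 upstream on the same strand and 6.52 upstream on the opposite strand. Over the actinomycin D level it was 19.2, 16.9, 13.8, 11.99 and 8.73 in that order. Against POLR1A depletion the members' ratio was thus close to those of the far genes and of same-strand genes upstream.

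Ratios within a library remove its scaling and depth. The members' level over that of the far silent genes was 3.19 to 3.34 with POLR2A depleted, 3.02 to 3.11 with POLR1A depleted, 2.09 to 2.51 with actinomycin D and 2.18 to 2.33 in controls. Over the opposite strand past the 3' end the members stood at 1.24 to 1.299, 1.02 to 1.12, 0.980 to 1.23 and 0.997 to 1.03 in the same order. Over same-strand genes upstream they stood at 1.80 to 2.01, 1.73 to 1.88, 0.992 to 1.38 and 0.951 to 1.28. In all 3 ratios the POLR2A-depleted libraries lay above every control and actinomycin D library. They did not overlap the POLR1A-depleted libraries in the first and second ratio, and did in the third. Among protein-coding genes alone the ratio to far genes was 3.26 to 3.44 with POLR2A depleted, 3.18 to 3.49 with POLR1A depleted and 2.47 to 2.70 in controls, so the POLR1A range spanned that of POLR2A. Over protein-coding genes on the opposite strand it was 1.34 to 1.38 with POLR2A depleted, and the actinomycin D range of 0.998 to 1.42 overlapped it.

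The whole class of silent genes moved with this result. The sum over all silent genes was 3679 to 4489 CPM with POLR2A depleted, against 163 to 234 for the controls, 391 to 419 for the POLR1A group and 278 to 291 for the actinomycin D group. How far the members' counts follow from this shift of the whole class was not tested. As the strand setting of the counting was not given, reads of a member and of a gene opposite to it cannot be told apart.

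The distance from the upstream gene did not order the members after POLR2A depletion. Their level per Mb of exon was 310 ± 36.1 for the 70 members starting within 1 kb, 315 ± 50.1 for the 297 at 1 to 5 kb, 391 ± 37.8 for the 341 at 5 to 10 kb and 322 ± 39.6 for the 650 at 10 to 20 kb (SD, n = 3). Spearman's rho between distance and level per kb over all 1358 members was 0.029, and -0.069 over the 320 protein-coding ones, as a description over genes that share libraries. Where 1 upstream gene had at least 2 members of 300 bases of exon or more, the nearer was higher per kb in 47 of 92 cases, the farther in 39 and neither in 6.

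**Figure D2:**
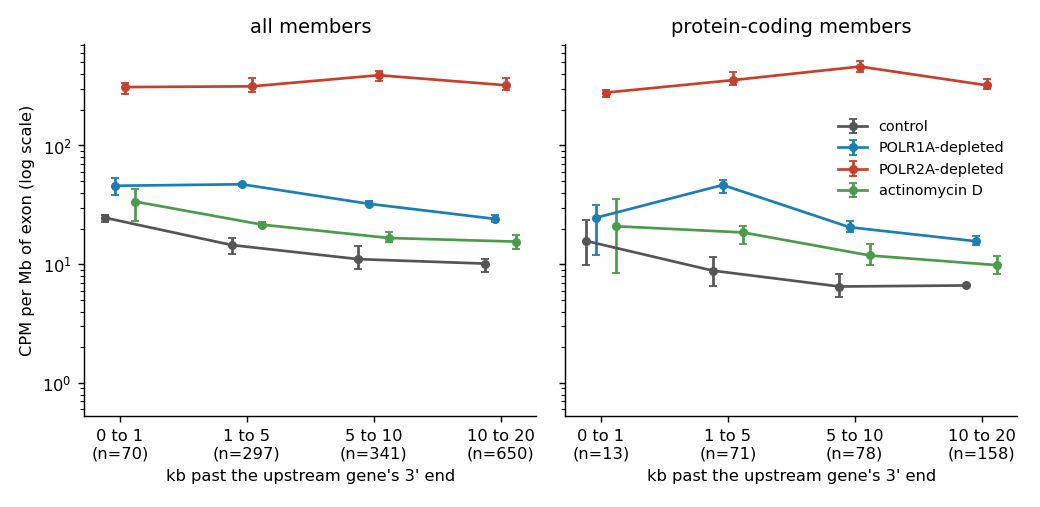
Member level against distance past the upstream 3' end, as CPM per Mb of exon on a log axis; points are means of 3 libraries, bars span the lowest to the highest library, and n is the number of members in a bin. In the left panel the POLR2A-depleted means lie between 310 and 391, and the other 3 groups are lower at 10 to 20 kb than at 0 to 1 kb.

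In the other groups members within 1 kb stood above those at 10 to 20 kb. With POLR1A depleted the level per Mb went from 45.8 ± 7.52 within 1 kb and 47.1 ± 1.75 at 1 to 5 kb to 32.3 ± 1.46 and 24.1 ± 1.66 in the farther bins. With actinomycin D it went from 33.7 ± 9.89 and 21.6 ± 0.971 to 16.6 ± 1.72 and 15.5 ± 2.14, and in controls from 24.7 ± 1.62 and 14.5 ± 2.33 to 11.04 ± 2.83 and 10.1 ± 1.35. No library within 1 kb overlapped the 10 to 20 kb range of its group in any of these 3 groups. Protein-coding members with POLR1A depleted peaked at 1 to 5 kb with 46.5 ± 6.17, against 15.6 ± 1.61 at 10 to 20 kb. The bin within 1 kb holds only 13 protein-coding members, beside 23 small RNAs among its 70. Within kinds the order was mixed. Protein-coding ranges within 1 kb and at 10 to 20 kb overlapped with POLR1A depleted and with actinomycin D, but not in controls. With actinomycin D, pseudogenes had means of 19.7 and 21.0 in these bins, and small RNAs 55.2 and 78.2. In controls and with POLR1A depleted both kinds had the higher mean within 1 kb. Long non-coding RNAs had it in all 3 groups.

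After POLR2A depletion the members' level per Mb was higher behind more highly expressed genes. Behind genes at 5 to 20 CPM in controls the members stood at 241 ± 24.1 CPM per Mb of exon with POLR2A depleted. Behind genes at 20 to 50, 50 to 100 and 100 CPM or more they stood at 303 ± 34.3, 411 ± 44.0 and 556 ± 86.3. With POLR1A depleted the same bins held 28.98 ± 2.03, 32.2 ± 3.45, 28.6 ± 2.30 and 40.4 ± 3.04, and with actinomycin D 15.6 ± 1.37, 18.2 ± 1.49, 21.5 ± 3.37 and 16.6 ± 1.77. Spearman's rho between upstream control CPM and member level after POLR2A depletion was 0.17 over 1358 members and 0.25 over 320 protein-coding ones, again as a description. The share of members with a count after POLR2A depletion did not follow this order: it was 51.6% ± 2.67 in the lowest bin and 60.7% ± 4.004, 61.8% ± 2.29 and 60.0% ± 2.98 in the others.

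**Figure D3:**
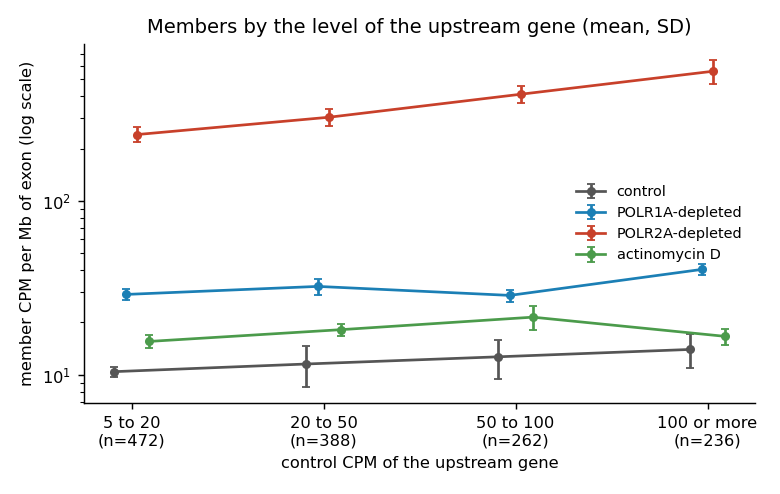
Member level against the control level of the upstream gene, as CPM per Mb of exon on a log axis; points are means and bars the SD of 3 libraries, and n is the number of members. After POLR2A depletion the level runs from 241 to 556 across the bins, and in the other groups the bins lie closer together.

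The 15 upstream genes below were named by the largest gain in member counts, and each of them has a single member. The 5 largest gains were all on protein-coding members. VWA3A starts 5004 bases past MOSMO at chr16:22092538-22156966 on the plus strand. Its counts were 187, 211 and 162 with POLR2A depleted, 7, 6 and 10 with POLR1A depleted, 3, 4 and 0 with actinomycin D and 3, 0 and 0 in controls. SEMA4A, a semaphorin of immune and neural signalling, starts 7277 bases past LMNA, the gene of nuclear lamins A and C, at chr1:156147366-156177752 on the plus strand. It had 193, 221 and 135 counts with POLR2A depleted, 7, 3 and 1 with POLR1A depleted, 3, 2 and 0 with actinomycin D and 0, 2 and 1 in controls. In both genes every POLR2A-depleted library was far above all others, at 13.8 ± 0.711 CPM for VWA3A and 13.4 ± 1.37 CPM for SEMA4A (SD, n = 3).

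MYO1A, a myosin of the intestinal brush border, starts 4445 bases past NEMP1, which encodes an inner nuclear membrane protein. Its counts were 148.5, 221 and 129 with POLR2A depleted, 7.33, 10 and 11.6 with POLR1A depleted, 1, 4.44 and 8 with actinomycin D and 1, 0 and 1 in controls. SLC17A8, the vesicular glutamate transporter VGLUT3, starts 15355 bases past SCYL2 and had 137, 175 and 89.1 counts with POLR2A depleted, 0, 0 and 2 with POLR1A depleted, 0, 1 and 3 with actinomycin D and 1, 2 and 0 in controls. ZC3H12D, a zinc finger protein that acts on inflammatory mRNAs, starts 19672 bases past PPIL4, near the outer limit of 20 kb. It had 95, 158 and 95 counts with POLR2A depleted, 7, 5 and 1 with POLR1A depleted, 5, 7 and 2 with actinomycin D and 2, 0 and 1 in controls. MYO1A was above control in every POLR1A-depleted library, and the POLR1A-depleted and control ranges of SLC17A8 and ZC3H12D overlapped.

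PTGER3, the prostaglandin E2 receptor EP3, lies 15483 bases past ZRANB2, which encodes a splicing factor. Its counts were 88, 146 and 91 with POLR2A depleted, 3, 2 and 0 with POLR1A depleted and 0 in every actinomycin D and control library. Against a floor of 3 counts over the 3 control libraries its CPM was at least 126-fold higher with POLR2A depleted. ARMCX4, behind HNRNPH2, and GLYATL3, a glycine acyltransferase relative behind the kinetochore gene CENPQ, had no count in any other group. ARMCX4 had 83, 99 and 54 counts and GLYATL3 63, 86 and 74 with POLR2A depleted, at least 91.4-fold and 86.3-fold above the same floor. LINC00370, a long non-coding RNA behind AL161431.1, had 55, 84 and 75 counts with POLR2A depleted and a single count elsewhere, in a POLR1A-depleted library.

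SYT16, a synaptotagmin behind SNAPC1, a subunit of the complex that drives small nuclear RNA genes, had 117, 105 and 92 counts with POLR2A depleted, 1 count in 2 of the controls and none elsewhere. MAP7D2, a microtubule-associated protein behind the translation initiation factor gene EIF1AX, had 112, 106 and 90 counts with POLR2A depleted, 4, 7 and 8 with actinomycin D, 2, 3 and 2 with POLR1A depleted and 0, 0 and 2 in controls. F13B, the B subunit of coagulation factor XIII, had 80, 103 and 47 counts behind ASPM, a spindle gene. KLHL3, an adaptor of a ubiquitin ligase, had 67, 90 and 66 behind HNRNPA0, and AC006378.2 had 60, 99 and 64 behind the SNARE gene BET1. The 3 just named had at most 9 counts in any library outside the POLR2A group. MIA-RAB4B, a readthrough transcript of MIA and RAB4B behind the U1 snRNP gene SNRPA, had 70.3, 128 and 61.0 counts with POLR2A depleted and 0, 18.4 and 4.68 with actinomycin D. It overlaps 4 other annotated genes and shares exons with some of them, so its estimated counts are uncertain. Of the other named neighbours, SYT16 overlaps 3 annotated genes on either strand, PTGER3 2, and MYO1A, MAP7D2, ARMCX4 and KLHL3 1 each. The part of these overlaps in their counts was not tested.

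**Figure D4:**
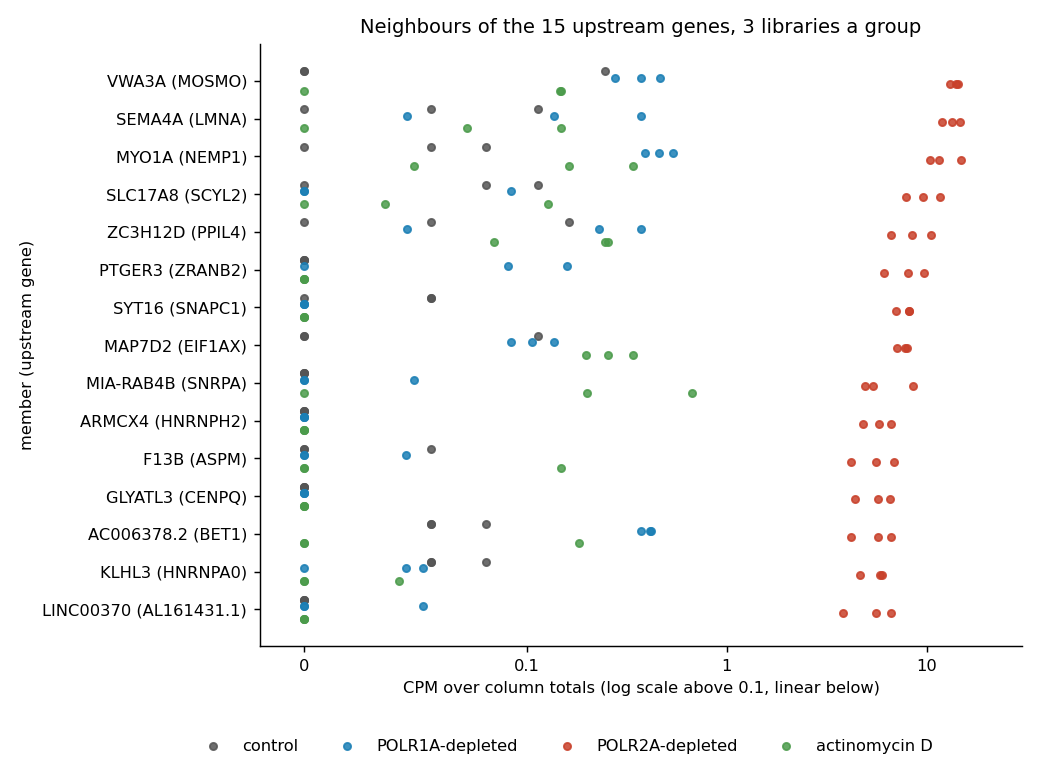
CPM of the members behind the 15 named upstream genes, with the upstream gene in brackets; each point is a library, and the axis is logarithmic above 0.1 CPM and linear below. The POLR2A-depleted points lie between 3.82 and 14.7 CPM, and the highest point of another group is at 0.670 CPM.

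The upstream genes themselves did not share a direction. They were chosen by control level, so the differences and calls against control in this paragraph are a description and no support is drawn from them. In the edgeR fit LMNA was higher with POLR2A depleted by 0.57 on the log2 scale (SE 0.055), with 512, 493 and 511 CPM against 342, 306 and 294. CENPQ was higher by 0.82 (SE 0.12), and MOSMO, NEMP1 and BET1 were also called higher, by 0.33, 0.19 and 0.37. HNRNPA0 was lower, at -0.60 (SE 0.065), and AL161431.1 at -1.15 (SE 0.086). PPIL4, ZRANB2, SNAPC1, EIF1AX, SNRPA, HNRNPH2 and ASPM were called lower, at -0.21 to -0.52, and SCYL2, at -0.06, was called in neither direction. Over all 1159 upstream genes 264 were called higher and 573 lower, or 22.8% and 49.4% against 33.2% and 28.2% of all genes, with a median of -0.22 beside 0.08 for all genes tested. The set of all genes has no lower limit on control level, so these shares are not on equal terms. Scaled to library totals the numbers for the upstream genes were 341 and 476 with a median of -0.09. Among the 51 whose member had 100 or more counts the numbers were 17 and 22 with a median of -0.06. With libraries scaled to mitochondrial mRNAs the median of all genes against control became -0.20 with POLR2A depleted, 0.37 with POLR1A depleted and 0.82 with actinomycin D, and 70 of the 1159 were higher and 685 lower.

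Members that differed between actinomycin D and POLR1A depletion form a smaller set. The filtered edgeR fit called 6 of the 162 members tested higher with actinomycin D and 19 lower, against 24.4% and 31.8% of all genes. Without a filter it was 9 and 42 of 1109, against 13.5% and 14.6%. The choice of members used neither group. Scaling to mitochondrial mRNAs gave 7 and 11. The 6 higher calls became 2 without actinomycin D replicate 2 and 3 without POLR1A replicate 1. Of the named neighbours, VWA3A was lower with actinomycin D, at -1.69 on the log2 scale (SE 0.65, adjusted p 0.03419), MYO1A at -1.17 (SE 0.48, adjusted p 0.04372) and AC006378.2 at -2.29 (SE 0.68, adjusted p 0.006548). MAP7D2 was higher by 1.35 (SE 0.56, adjusted p 0.04624).

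PDE6G departs from the general order. It encodes the inhibitory gamma subunit of the rod photoreceptor phosphodiesterase and starts 1924 bases past OXLD1, at chr17:81650459-81663112 on the minus strand. Its counts were 42, 38 and 44 with POLR1A depleted, 11, 8 and 9 with POLR2A depleted, 0, 1 and 0 with actinomycin D and 0 in all controls. All POLR1A-depleted libraries were above all POLR2A-depleted ones, which in turn were above the rest. The log2 difference between actinomycin D and POLR1A depletion was -6.48 (SE 0.73, adjusted p 2.192e-07 in edgeR), and between POLR2A and POLR1A depletion -1.59 (SE 0.47, adjusted p 0.006654). It was the sole member of the 162 called lower in the second of these. PDE6G had its highest counts in the POLR1A group, so its passing of the filter is not independent of either difference. In the edgeR fit without a filter the second difference was -1.68 (SE 0.53, adjusted p 0.005585). Without a filter 4 more were called, named here after their values were seen: PRR35 behind CAPN15, CCDC27 behind TP73, the U1 RNA gene RNU1-3 behind EIF1AXP1, and OR2A9P. CCDC27 had 9, 3 and 6.74 counts with POLR1A depleted and none with POLR2A depleted, and PRR35 had 6, 3 and 10 against 0, 1 and 0. OXLD1 stood at 7.50, 8.62 and 9.98 CPM with POLR1A depleted and at 15.7, 14.1 and 12.95 CPM in controls. This fall by 0.75 on the log2 scale (SE 0.12) is a description, since upstream genes were chosen by control level.

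Other members with many POLR1A-depleted counts were AC105046.1, FOXD4L3, CD7 and OR2A9P. AC105046.1 starts 3650 bases past EGR3, an immediate early transcription factor gene, and had 10, 14 and 20 counts with POLR1A depleted, 15, 8 and 4 with POLR2A depleted, 1, 1 and 1 with actinomycin D and 1, 0 and 1 in controls. It was lower with actinomycin D than with POLR1A depleted, at -3.71 on the log2 scale (SE 0.76, adjusted p 2.638e-04 in the filtered edgeR fit), and these groups did not overlap. AC105046.1 was named by its POLR1A-depleted counts, which also helped it pass the filter. This difference is thus not independent of either step and is a description. EGR3 itself stood at 29.1, 32.5 and 33.9 CPM with POLR1A depleted, 12.5, 11.9 and 13.7 with POLR2A depleted, 1.82, 2.08 and 2.09 with actinomycin D and 7.03, 6.84 and 8.10 in controls. Gene and neighbour were both lowest with actinomycin D among the treated groups. CD7, a T cell surface protein, lies 3422 bases past SECTM1, which encodes a CD7 ligand, and had 5, 19 and 13 counts with POLR1A depleted against 1, 0 and 2 in controls. FOXD4L3 had 11.3, 29.5 and 0 counts with POLR1A depleted and OR2A9P 16.0, 4.73 and 15.9, and both belong to families of near-identical copies, so their values are uncertain.

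With actinomycin D the leading members had few counts. AC006001.3 had 3.62, 16.7 and 11.4, RN7SL825P, a pseudogene copy of the signal recognition particle RNA, had 10.1, 7.13 and 8.69, and VAMP5 had 9, 6 and 10. VAMP5, a SNARE of muscle cells 2377 bases past its relative VAMP8, had 52, 44 and 25 with POLR2A depleted, 8, 12 and 5 with POLR1A depleted and 0, 1 and 1 in controls. VAMP5 did not differ by the test between actinomycin D and POLR1A depletion, at -0.01 on the log2 scale (SE 0.50, adjusted p 1), and every library of both groups was above every control. By log2 difference the largest calls higher with actinomycin D were AC015845.2, which starts 32 bases past MRPS23 and had 1, 5 and 2 counts against none with POLR1A depleted (adjusted p 0.01647), MIA-RAB4B (adjusted p 0.02105) and ACSM1, with 3, 7 and 5 against 0, 1 and 0 (adjusted p 0.01226). SYNPO2L, behind AGAP5, had the smallest adjusted p of the 6, 0.009788, with 9, 2 and 3 counts against 1, 0 and 0. All 6 overlap another annotated gene, so their few estimated counts are uncertain. After PDE6G, the members lowest with actinomycin D were AC110769.1, behind ACTR3, with 0 in each library against 8, 4 and 4 (adjusted p 0.001977), and AC091230.1, behind CSK, with 0 against 3.52, 3 and 3.13 (adjusted p 0.004265). The 5 members called higher with actinomycin D than with POLR2A depleted, without a filter, were RNU1-3, RPSAP69, AC139495.1, AC146944.2 and AC004080.6, again named after their values were seen. AC139495.1 and AC146944.2 held identical values, 1.23, 11.5 and 6.17 with actinomycin D, and lie behind GTF2H2C and GTF2H2B, near-identical copies of a gene, so they count as 1 measurement. AC004080.6, a transcript behind the homeobox gene HOXA7, had 14.6, 0 and 2.16 counts with actinomycin D and none with either degron, so most of its counts came from a single library. RNU1-3 had 0, 9.06 and 0 counts with actinomycin D and rests on 1 library.

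**Figure D5:**
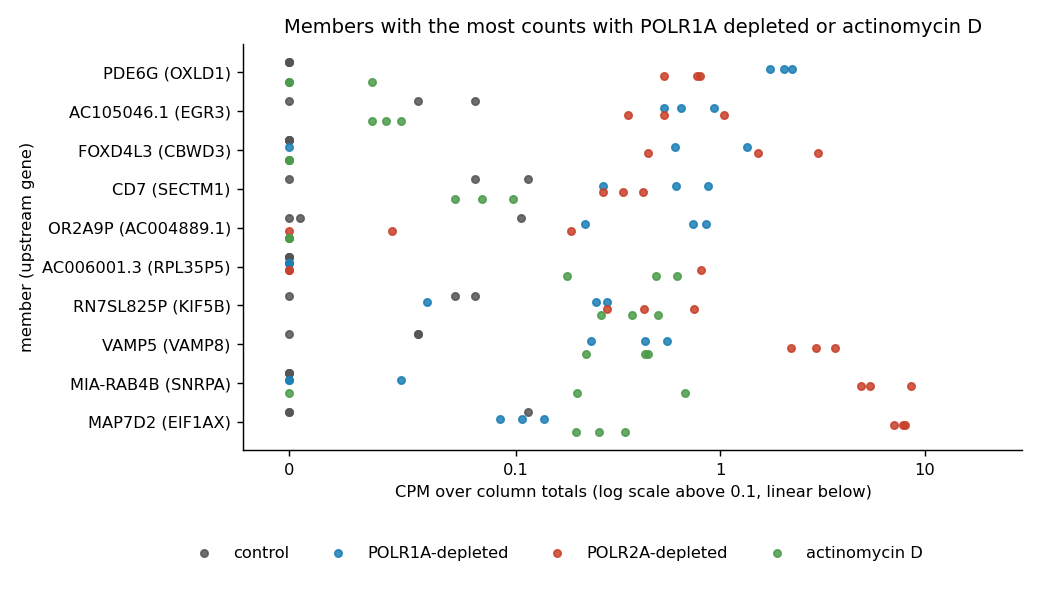
CPM of the members with the most counts with POLR1A depleted (upper 5) or actinomycin D (lower 5), with the upstream gene in brackets; each point is a library, and the axis is logarithmic above 0.1 CPM and linear below. PDE6G has its POLR1A-depleted points above its POLR2A-depleted ones, while VAMP5, MIA-RAB4B and MAP7D2 have the POLR2A-depleted points highest.

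Genes of cleavage, polyadenylation and termination were read from a list of 38, all of which were tested. Against control with POLR2A depleted, 10 were called higher and 22 lower, against 33.2% and 28.2% of all genes, and the list's median log2 change was -0.29 beside 0.08 for all genes. The set of all genes has no lower limit on control level, so such shares, here and for the other groups below, are not on equal terms. Of the 1159 upstream genes 22.8% were called higher and 49.4% lower, with a median of -0.22. SCAF8, an anti-terminator that restrains early polyadenylation, was at -1.69 (SE 0.076, adjusted p 6.746e-14), CDK12, a kinase of the polymerase tail, at -1.33, the cleavage factor subunit CPSF7 at -1.17 and FIP1L1, a subunit of the complex that reads the poly(A) signal, at -1.06. CLP1 rose by 1.05 (SE 0.12, adjusted p 1.312e-07) and RBBP6 by 0.75, both factors of 3' end cleavage. XRN2, the termination exonuclease, was lower with POLR2A depleted, at -0.22 (adjusted p 0.004089), and with POLR1A depleted, at -0.18 (adjusted p 0.02321), and higher by 0.54 with actinomycin D (adjusted p 1.095e-07). Scaling to mitochondrial mRNAs gave 2 higher and 24 lower with POLR2A depleted.

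In the other groups the list moved in both directions. With POLR1A depleted 12 were called higher and 16 lower with a median of 0.03, against 20.6% and 18.6% of all genes. With actinomycin D 14 were higher and 18 lower with a median of -0.05, against 24.9% and 28.5%. There CLP1 stood at -3.01 on the log2 scale, RBBP6 at -2.26 and the cleavage factor PCF11 at -1.91, and CPSF1 rose by 0.71. CLP1, RBBP6 and PCF11 were thus lower with actinomycin D and higher with POLR2A depleted, where PCF11 rose by 0.40. Scaling to mitochondrial mRNAs gave medians of 0.38 with POLR1A depleted, with 19 higher and 1 lower, and 0.87 with actinomycin D, with 25 higher and 9 lower.

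Values just inside and just outside the limits of the rule are given as a description. Silent genes with a control sum above 2 and up to 3 had a mean of 40.0 counts over the POLR2A-depleted libraries, and genes just outside, above 3 and up to 4, had 30.2, while those above 4 and up to 8 had 42.1. Members starting 15 to 20 kb past a gene had a mean of 20.1 counts and silent genes at 20 to 25 kb had 13.7. Members behind a gene at 5 to 6 CPM had 14.5 counts and silent genes behind one at 4 to 5 CPM had 10.4. The mean was lower in the band just outside at each of the 3 limits.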

How the data were processed

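Total RNA was sequenced in 12 libraries; groups came from the sample titles. The deposited values are estimated counts per Ensembl gene, given by the authors with no further scaling, per the values and the labels' protocols; the submitters' processing notes name STAR and RSEM 1.3.3. The annotation release, like the strand setting, was not given in the sources used here. Genes carrying 58228 of the 63241 identifiers were placed with GENCODE 29 on GRCh38. "Expressed" in the overlap rule was read as a control mean of 5 CPM or more, and the nearest qualifying gene was taken as the upstream gene. Estimated counts were rounded and fitted with edgeR 4.0.16 in R 4.3.3: quasi-likelihood, robust, TMM, all 12 libraries, 1 mean a group, with filterByExpr (23593 genes) or without a filter (49388 genes with a rounded count), calls at Benjamini-Hochberg adjusted p under 0.05. The steps were tested on simulated data.

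Named were the 15 upstream genes with the largest gain (POLR2A-depleted minus control counts) and their members, the 5 protein-coding members with the most POLR2A-depleted counts, the 5 members with the most counts in the POLR1A and actinomycin D groups, and the 3 highest and 3 lowest members called between those groups. Members, lists and rules were chosen with earlier results of these data known. Alternatives were another scaling, filter, tool (DESeq2 1.42.0), sample set, replicate block, left-out libraries and other limits of the rule.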

Additional observations from a re-analysis of the deposited data

How the results depend on the processing

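Of the 160 recomputed values, 52 counts or levels left the range called alike, mostly because fewer or more members entered. These values carry no sign, so a reversal of direction could not be read from them. The numbers higher than with POLR1A depleted and than with actinomycin D (156 and 160) became 355 and 400 without a filter, 344 and 395 with 10 or more counts over the 12 libraries, and 249 and 305 in DESeq2. They were 34 and 37 within 5 kb, 75 and 79 within 10 kb, 52 and 54 with no control count, and 94 and 98 without members that overlap another gene. Lower calls (1 and 0) became 5 and 5 without a filter, 6 and 3 with 10 or more counts, and 2 and 2 in DESeq2. Between actinomycin D and POLR1A depletion (6 higher, 19 lower), higher calls were 2 with no control count, 3 within 5 kb, and 0 both in the 6 libraries compared, where 2 members were tested, and without overlapping members. Lower calls there were 42 without a filter, 42 with 10 or more counts, 31 in DESeq2, 6 with no control count, 2 in the 6 libraries, 11 with mitochondrial scaling, 12 behind genes at 20 CPM or more and 7 within 5 kb.

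The share of members with a count in the POLR2A-depleted libraries (57.6%) was 51.7% within 5 kb, 46.1% with no control count and 60.6% behind genes at 20 CPM or more. Its excess over far silent genes (29.7 percentage points) was 23.8, 18.2 and 32.7 there, 27.5 within 10 kb, 31.4 without pseudogenes and 30.6 without overlapping members. In these settings only the members were restricted. The far genes kept those with control counts, pseudogenes and overlapping genes, so the excesses with such limits are not on equal terms. The summed CPM (585) was 128 within 5 kb, 304 within 10 kb, 221 with no control count, 436 behind genes at 20 CPM or more, 490 without pseudogenes, 352 without overlapping members and 492 without the 10 largest members. Leaving out 1 library at a time gave 167 to 209 members higher and 1 to 2 lower than with POLR1A depleted, 170 to 223 higher and 0 lower than with actinomycin D, and 2 to 6 higher and 18 to 25 lower between the other pair. The single lower call against POLR1A depletion became 2 without POLR1A replicate 2 and 2 without POLR2A replicate 1. The levels ranged from 56.5% to 59.0%, 546 to 613 CPM and 29.3 to 30.1 points. With the replicate number as a block the counts were 155 and 1, 160 and 0, and 4 and 15. Same-numbered libraries did not deviate together: 18 correlations ran from -0.061 to 0.039 and 2 of 12 libraries correlated best with their own number, so the numbers do not pair the samples. Members with low counts in every group entered only the fit without a filter, and a missing call there does not show that groups were alike.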
